A study of Mus musculus with 4 samples.

Results

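*Aire*, *Fezf2* and 7 genes listed with them as chromatin or elongation factors (*Chd4*, *Top1*, *Top2b*, *Hipk2*, *Cdk9*, *Ccnt1* and *Jmjd6*) were followed in the transcriptome of medullary thymic epithelial cells (mTECs). The genes were taken by symbol, by a rule that uses no measured value, though earlier results of these data were known when they were chosen. They are 9 of the 23337 genes in the count table, and all 9 were among the 18547 genes that passed the filter on low counts and were tested.

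RNA-seq was performed on mTECs sorted as CD45- EpCAM+ UEA-1+ Ly51- cells from thymi of C57BL/6 mice aged 4 weeks, with 2 libraries labelled wild type (WT) and 2 labelled Sirt6-/-. The study designates the latter *Sirt6* cKO. These mice carry *Foxn1*-cre, which acts in thymic epithelial cells as a whole and not in mTECs alone, and loxP-flanked *Sirt6* alleles, whereas the controls lacked *Foxn1*-cre and were littermates or of the same age. How many mice gave each library is not given in the sources used here, so p-values measure only the spread between these libraries, which may in part be technical.

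mTECs express a large share of the genes of other organs, and developing T cells that recognize the products are deleted or become regulatory T cells. Aire, a nuclear protein whose loss causes multi-organ autoimmunity, acts mainly after initiation. It binds chromatin with unmodified histone H3 tails, recruits topoisomerases and the elongation kinase P-TEFb, and releases paused RNA polymerase II. Fezf2, a zinc finger transcription factor first known from the forebrain, drives a largely separate set of such genes, together with the chromatin remodeler Chd4.

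The libraries labelled *Sirt6* cKO did not show less RNA of the targeted gene. Counts of *Sirt6* were 622 (WT 1) and 755 (WT 2) against 882 (*Sirt6* cKO 1) and 835 (*Sirt6* cKO 2), a log2 fold change of 0.37 (SE 0.32, 95% interval -0.43 to 1.18). A count over the whole gene does not separate the loxP-flanked exons from the rest, and every direction below is drawn from the labels. Total counts ranged from 61102704 to 65907745 per library. The 14 mTEC markers summed to between 21385 and 22950 CPM (counts scaled to library size, with TMM factors), against 591 to 1171 CPM for 10 thymocyte markers and 120 to 199 CPM for 6 B cell markers, and no marker was at 0 in all libraries. Most of the mTEC sum came from the MHC class II genes *H2-Aa* and *H2-Ab1*, so this sum does not measure the purity of the sort. Genes of these and the following lists are named after their values were seen. The 9 macrophage and dendritic cell markers summed to 4934 and 3034 CPM in WT and to 1972 and 2112 CPM in the cKO-labelled libraries, of which *Lyz2*, the lysozyme gene, gave 4647, 2815, 1778 and 1906 CPM. *Lyz2*, *Cd68* and *Emr1* fell at the unadjusted edgeR threshold of 0.05 and 0 of the 9 rose. The median log2 fold change of the 9 was -0.56. *Zbtb46* (0.56), *Siglech* (0.20), *Itgax* (-0.20), *Fcgr1* (-0.29), *Csf1r* (-0.56) and *Xcr1* (below this median) did not pass. Of 6 tuft cell markers, *Gnat3* (-2.99), *Avil* (-1.06) and *Trpm5* (-0.99) fell at this threshold, whereas *Pou2f3*, the factor that defines the lineage (0.24), *Dclk1* (0.36) and *Il25* (-1.49) did not pass. The DESeq2 adjusted p was 1.6e-05 for *Gnat3*, 0.00053 for *Avil*, 0.0276 for *Cd68*, 0.0297 for *Lyz2* and 0.283 for *Emr1*.

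*Aire* lies on the minus strand of chromosome 10 (chr10:78030022-78043610, GRCm38) and *Fezf2* on the minus strand of chromosome 14 (chr14:12342094-12348189). Bases ahead of the RefSeq start of each (GRCm38.p6) are shown because these regulators had the highest levels of the 9 and differ in the short motifs they hold. Capitals mark motif matches. In *Aire* (chr10:78043611-78043860) these are TTCCTC, which is the Ets-type motif GAGGAA on the other strand, ATTGG, which is CCAAT on the other strand, and TATAAA. In *Fezf2* (chr14:12345960-12346115, shown up to the exon at this start and lying inside the annotated gene, which reaches further upstream) they are a run with overlapping matches to an NF-kB-type motif (GGG, any 5 bases, CC) and the AP-1 motif TGANTCA.
Aire promoter: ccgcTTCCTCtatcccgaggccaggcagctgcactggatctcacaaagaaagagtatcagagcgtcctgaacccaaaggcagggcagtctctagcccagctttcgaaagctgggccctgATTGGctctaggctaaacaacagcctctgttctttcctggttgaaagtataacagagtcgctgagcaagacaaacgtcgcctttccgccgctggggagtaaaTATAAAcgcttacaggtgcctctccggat
Fezf2 promoter: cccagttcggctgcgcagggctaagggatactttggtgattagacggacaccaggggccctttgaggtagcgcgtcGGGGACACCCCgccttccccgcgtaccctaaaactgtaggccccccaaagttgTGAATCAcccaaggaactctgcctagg

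The *Aire* bases lie within the body of *Dnmt3l*, the gene next to it, and contain 0 bases of its exons. Outside this window the exons of *Aire* share 67 bases with those of *Dnmt3l*, which lies on the other strand. TATAAA begins 29 bases before the start of *Aire*, CCAAT 131 and GAGGAA 246. Searched on both strands in the 250 bases before each start, TATAAA was found in 12.4% of 32851 RefSeq promoters and in *Aire* alone among the 9 genes (11 windows, since *Chd4* and *Hipk2* have more than one). GAGGAA was found in 23.3% of promoters and, among the 9, in *Aire* and *Ccnt1*, and CCAAT in 33.8% and in 5 of the 9. The NF-kB-type motif was found in 45.8% of promoters and in 8 of the 9, all but *Aire*, which says only that these letters are not in that window. In *Fezf2* it begins 174 and 173 bases before the start, and again at 85 and 84 bases, where it overlaps the GC box GGGCGG. The matches at 85 and 84 lie in the 94 bases nearest the start, which hold annotated *Fezf2* exon and are not shown. The AP-1 motif begins 121 bases before the *Fezf2* start and is found in 6.75% of promoters and in no other of the 9. GGGCGG, found in 32.7% of promoters, was in 7 of the 9 and not in *Aire* or *Jmjd6*. The *Aire* window had 53.2% G and C and 11 CpG dinucleotides, the *Fezf2* window 61.2% and 14, and the median promoter 52.4% and 6. The *Fezf2* values are over all 250 bases, with those 94 included. These matches are letters in a window and not evidence of binding.

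To compare levels between genes, the deposited TPM values, which account for transcript length, were used. *Fezf2* and *Aire* stood far above the others in every library. In WT, *Fezf2* was at 649.9 ± 25.2 TPM (SD, n = 2), higher than 99.0% of the genes tested, and *Aire* at 445 ± 71.1 TPM, higher than 98.4%. The next gene, *Top1*, which encodes the topoisomerase that relieves supercoiling ahead of polymerase, was at 53.7 ± 25.3 TPM, 8.29-fold below *Aire*. *Jmjd6* (53.4 ± 3.30 TPM), *Chd4* (42.3 ± 0.0911), *Ccnt1* (39.8 ± 2.03) and *Top2b* (30.5 ± 7.55) followed, and *Cdk9* (6.40 ± 1.37) and *Hipk2* (6.25 ± 0.744) were the lowest. *Top1* and *Jmjd6* were not separated by their WT libraries, nor were *Cdk9* and *Hipk2*. In the cKO-labelled libraries the order was the same except that *Aire*, at 693 ± 86.4 TPM, stood above *Fezf2*, at 565 ± 282 TPM. There the libraries of *Aire* and *Fezf2* overlapped, as did those of each neighbouring pair from *Top1* to *Ccnt1*.

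**Figure D1:**
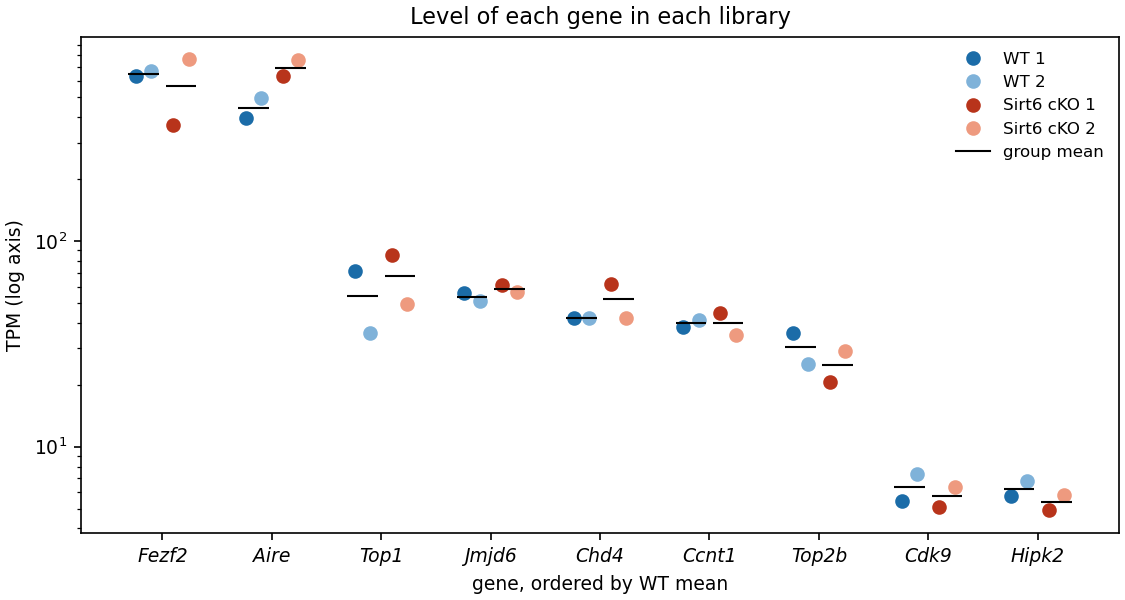
TPM (log axis) of the 9 genes, ordered by the WT mean, with 1 point per library (blue, WT; red, labelled *Sirt6* cKO) and a line at each group mean. *Aire* and *Fezf2* lie between 365 and 764 TPM in all libraries and the other 7 genes between 4.90 and 85.5 TPM.

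*Aire* was higher in the libraries labelled *Sirt6* cKO. WT libraries held 23001 and 27268 counts and cKO-labelled ones 33779 and 42559, which is 351 and 428 CPM against 559.7 and 664 CPM. Both cKO-labelled libraries lay above both WT libraries. The group means were 389.9 ± 54.5 and 612 ± 73.4 CPM (SD, n = 2 each), a 1.57-fold difference and a log2 fold change of 0.65 (SE 0.18, 95% interval 0.19 to 1.11). By edgeR's quasi-likelihood test *Aire* passed an unadjusted threshold of 0.05 but not the Benjamini-Hochberg adjustment over all genes (adjusted p = 0.54), and the same held for DESeq2 (adjusted p = 0.165). The log2 fold change was 0.49 without WT 1 and 0.49 without *Sirt6* cKO 2, and neither passed the unadjusted threshold, so the call needs both of these libraries. In sorted bulk cells, a larger share of cells that transcribe *Aire* and more RNA in each of them cannot be told apart. Of the 14 mTEC markers, *Cd80*, a costimulatory molecule of mature mTECs (log2 fold change 0.94), and *Epcam* (0.48) rose at the unadjusted threshold. *Ccl21a*, a chemokine of less mature mTECs, fell (-2.37). The median of the 14 was 0.32. Of those not past it, *Krt5* (0.89), *Ciita* (0.80), *Cd40* (0.48), *Cldn4* (0.34), *Krt14* (0.32), *Cd86* (0.19) and *H2-Aa* (0.09) were above 0. *H2-Ab1* (-0.24), *Cldn3* (-0.31) and *Krt8* (-0.33) were below 0. The DESeq2 adjusted p was 8.96e-06 for *Ccl21a*, 0.0108 for *Cd80* and 0.287 for *Epcam*. Of 8 cortical epithelial markers, *Ly75* (1.14) and *Dll4* (1.08) rose at the unadjusted threshold and 0 fell. The median of the 8 was -0.10. *Cxcl12* (0.24), *Ccl25* (-0.10), *Enpep* (-0.11), *Psmb11* (-0.25), *Ctsl* (-0.35) and *Prss16* (-0.41) did not pass. The part of these mTEC and cortical markers in the *Aire* values was not tested.

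*Aire* was the only one of the 9 past the unadjusted threshold, with 1 higher and 0 lower. Over all genes tested, 5.27% were called higher and 3.32% lower at this threshold (8.58% in all), so 1 of 9 is near the background. Of all genes called, 61.4% were higher, a share that was 48.4% with upper quartile scaling and 46.2% with library size alone. At an adjusted p of 0.05, edgeR called 0 of the 9 and 1 of all genes (0.00539%), and DESeq2 called 0 of the 9. The groups did not overlap in 2 of the 9, *Aire* and *Jmjd6*, both with higher values in the cKO-labelled libraries. Over all genes tested 41.9% had no overlap, 21.6% with higher values in the cKO-labelled libraries.

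The level of *Fezf2* depended on the library. Counts were 43961 (WT 1) and 43889 (WT 2), but 23313 (*Sirt6* cKO 1) and 51499 (*Sirt6* cKO 2). The cKO-labelled libraries thus lay on either side of the nearly equal WT pair, 2.08-fold apart at 386 and 803 CPM. The log2 fold change was -0.20 (SE 0.35, 95% interval -1.07 to 0.68; edgeR adjusted p = 0.924). Without *Sirt6* cKO 1 it was 0.24, and without *Sirt6* cKO 2 it was -0.85 and past the unadjusted threshold. No direction can be given for *Fezf2*, and the interval leaves room for a change of either sign.

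*Chd4* (chr6:125095981-125130591, plus strand), the ATPase of the NuRD deacetylase complex, again set *Sirt6* cKO 1 apart. Its level was 183 CPM in *Sirt6* cKO 1 against 124 CPM in *Sirt6* cKO 2 and 125 and 122 CPM in WT. All libraries but *Sirt6* cKO 1 were thus nearly equal. The log2 fold change of 0.31 (SE 0.24, 95% interval -0.30 to 0.91, edgeR adjusted p = 0.775) was 0.00 without *Sirt6* cKO 1.

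*Top1* (chr2:160645888-160722764, plus strand) differed more within groups than between them. WT libraries held 8311 and 3931 counts and cKO-labelled ones 9110 and 5532, so that replicate 1 exceeded replicate 2 by 2.06-fold in WT and 1.75-fold in the cKO-labelled group. The group log2 fold change was 0.33 (SE 0.44, 95% interval -0.77 to 1.43, edgeR adjusted p = 0.886), and it was -0.10 without WT 2 and -0.13 without *Sirt6* cKO 1. The 8 proliferation markers were split the same way, at 709 and 364 CPM in WT and 762 and 353 CPM in the cKO-labelled libraries. Replicate 1 was over 1.5-fold above replicate 2 in both groups in 1050 of all genes tested (5.66%). The part of cell division in the *Top1* values was not tested.

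*Top2b* (chr14:16365179-16435462, plus strand) encodes the topoisomerase that cuts both strands of DNA and is present in cells that do not divide. It was at 93.2 and 63.6 CPM in WT and 53.6 and 74.6 CPM in the cKO-labelled libraries, which overlapped. The log2 fold change was -0.29 (SE 0.30, 95% interval -1.04 to 0.45, edgeR adjusted p = 0.842). Of the 50-base words of its longest transcript, 16.1% occur in *Rarb* as well, which overlaps it on the other strand, and whether strand was used in counting is not given in the sources used here.

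The kinase genes had low levels in all libraries. *Hipk2* (chr6:38694390-38876165, minus strand), a nuclear kinase known to phosphorylate Aire, had 720 and 821 counts in the WT libraries, against 570 in *Sirt6* cKO 1 and 714 for *Sirt6* cKO 2. Its groups overlapped only just in CPM, at 11.0 and 12.9 against 9.44 and 11.1. The log2 fold change was -0.22 (SE 0.33, 95% interval -1.03 to 0.60, edgeR adjusted p = 0.905). *Cdk9* (chr2:32705784-32713076, minus strand), the kinase of P-TEFb that phosphorylates RNA polymerase II and its pausing factors, had 556 and 713 counts (WT) against 479 and 630 (cKO-labelled), again with overlap in CPM. Its log2 fold change was -0.15 (SE 0.36, 95% interval -1.05 to 0.76, edgeR adjusted p = 0.946), and it was 0.06 without WT 2. Neither kinase gene can be said to differ or to be equal between the groups, since both intervals reach beyond a 1.5-fold change on either side.

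*Ccnt1* (chr15:98538689-98570923, minus strand), cyclin T1, the partner that activates Cdk9, had nearly equal group means. It was at 38.5 and 40.2 CPM in WT and at 44.7 and 34.8 CPM in the cKO-labelled libraries, which lay on either side of WT. Its log2 fold change was 0.01 (SE 0.25, 95% interval -0.62 to 0.65, edgeR adjusted p = 0.992), and its sign turned with the scaling (-0.07 with upper quartile, -0.08 with library size alone).

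*Jmjd6* (chr11:116837432-116843449, minus strand), a nuclear oxygenase that hydroxylates lysines of splicing factors, varied least among the genes listed with *Aire* and *Fezf2*. It was at 42.9 and 38.2 CPM in WT and at 46.7 and 42.9 CPM in the cKO-labelled libraries, and the groups were apart only in the next decimal. Between groups it differed by 0.14 on the log2 scale (SE 0.23, 95% interval -0.44 to 0.73, edgeR adjusted p = 0.911). It shares exon bases with *Mettl23* on the other strand and with *Gm27401* on its own strand.

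**Figure D2:**
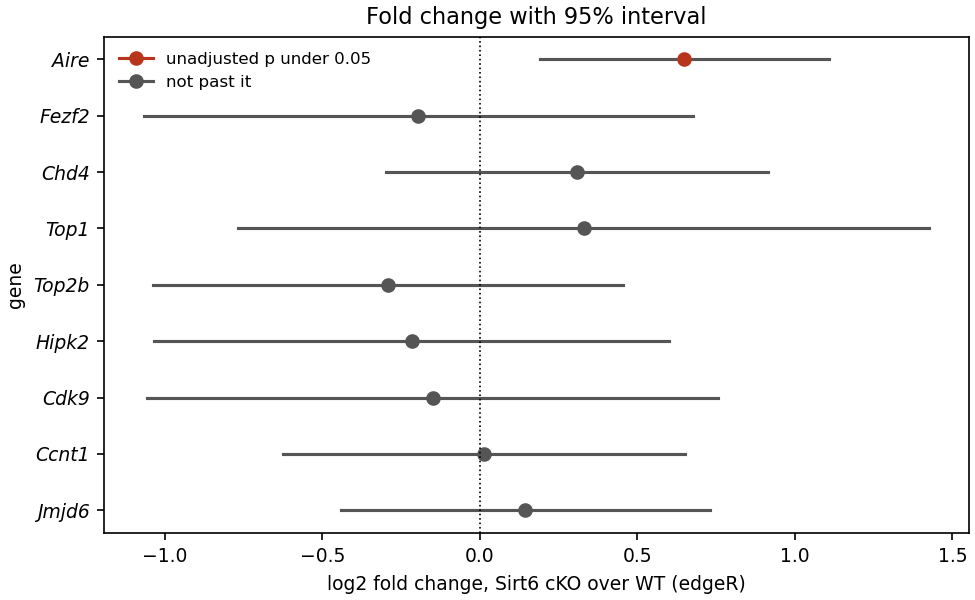
Log2 fold change of each gene (libraries labelled *Sirt6* cKO over WT, edgeR) with its 95% interval as a line. The interval of *Aire*, 0.19 to 1.11, lies above 0 and the other 8 include 0.

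**Figure D3:**
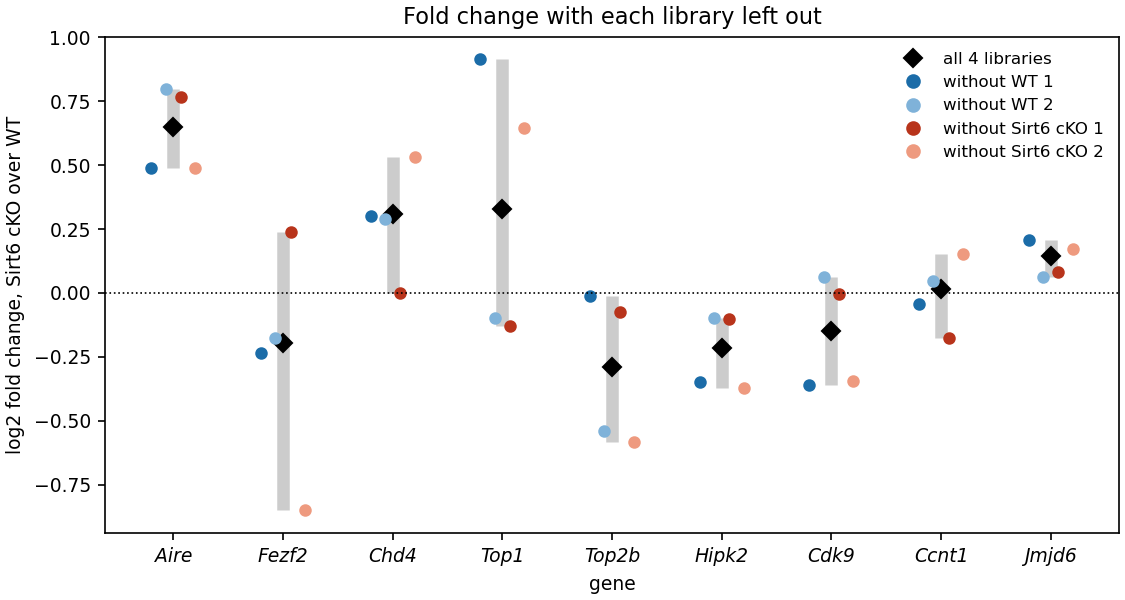
Log2 fold change of each gene with all 4 libraries (black diamond) and with each library left out (coloured points, with a grey bar over their range). *Aire* stays between 0.49 and 0.80, *Fezf2* runs from -0.85 to 0.24 and *Top1* from -0.13 to 0.91.

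*Sirt6* cKO 1 held the highest or the lowest of the 4 values in 8 of the 9 genes, all but *Aire*. It was highest in *Chd4*, *Top1*, *Ccnt1* and *Jmjd6* and lowest in *Fezf2*, *Top2b*, *Hipk2* and *Cdk9*. Over all genes tested this library was at an extreme in 52.3%. The count was chosen after the values were seen and was not tested.

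Ratios within a library do not depend on library scaling. The TPM ratio of *Aire* to *Fezf2* was 0.625 and 0.742 in WT, against 1.73 in *Sirt6* cKO 1 and 0.987 in the other cKO-labelled library. The groups did not overlap, and the mean log2 ratio differed by 0.94, or by 0.54 without *Sirt6* cKO 1 and 1.35 without *Sirt6* cKO 2. The exact two-sided permutation test gave p = 0.333, the smallest that 2 libraries against 2 allow. *Ccnt1* exceeded *Cdk9* in all libraries, by 7.06 and 5.60 in WT and by 8.78 and 5.52 in the cKO-labelled libraries, with overlapping groups (difference of the mean log2 ratio 0.15, exact permutation p = 1, and from -0.19 without *Sirt6* cKO 1 to 0.48 without *Sirt6* cKO 2). *Top2a*, the topoisomerase of dividing cells, exceeded *Top2b* by 2.60 and 2.25 in WT and by 5.61 and 1.82 in the cKO-labelled libraries (difference 0.40, exact permutation p = 1), and the difference turned to -0.41 when *Sirt6* cKO 1 was left out and to 1.21 when *Sirt6* cKO 2 was. No direction can be given for the *Ccnt1* to *Cdk9* or the *Top2a* to *Top2b* ratio.

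**Figure D4:**
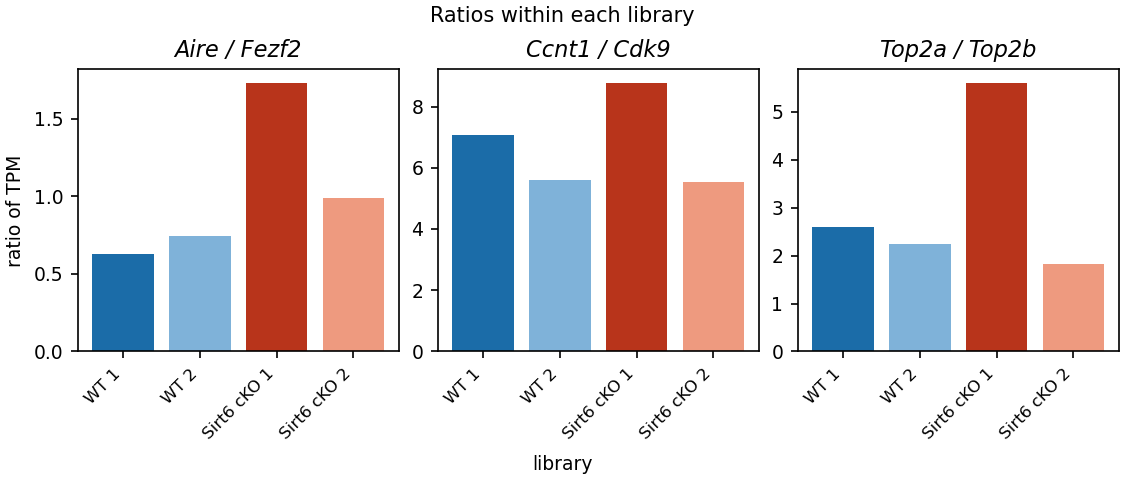
Ratio of TPM in each library (bars from 0) for *Aire* over *Fezf2*, *Ccnt1* over *Cdk9* and *Top2a* over *Top2b*. *Sirt6* cKO 1 is the highest library in each panel, at 1.73, 8.78 and 5.61.

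The proteins around these genes were then examined as lists, where rose and fell mean past an unadjusted edgeR threshold of 0.05, and 0 genes of any list passed at an adjusted p of 0.05 in edgeR, where DESeq2 passed 4 (*Spib*, *Irf4*, *Foxn1* and *Cyp1a2*). The median log2 fold change of all genes tested was -0.00, and 5.27% of them rose and 3.32% fell (8.58% in all). The share called was 12% for elongation, 7.14% for NuRD, 5.56% for paralogues and 9.09% for Fezf2-dependent genes, each near that of all genes. It was 0% for other Aire partners and 21.1% for Aire-dependent genes.

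Of 25 genes of the elongation machinery around P-TEFb, 3 rose, 0 fell and 22 did not pass, with a median log2 fold change of 0.18. *Cdk12*, a kinase of the RNA polymerase II tail, rose from 2047 and 2226 counts to 3836 and 3433 (log2 fold change 0.82, SE 0.24, edgeR adjusted p = 0.541). *Supt6h*, an elongation factor and histone chaperone, rose from 6989 and 8749 counts to 12297 and 10974 (0.62, SE 0.21, edgeR adjusted p = 0.548). *Aff1*, a scaffold of the super elongation complex, rose the most, from 2925 and 1266 counts to 9515 and 3285 (1.69, SE 0.65, edgeR adjusted p = 0.564), with the lowest cKO-labelled library close to the highest WT library. *Cdk13*, the closest relative of *Cdk12*, had the lowest log2 fold change, -0.62 (95% interval -1.59 to 0.35). Without *Sirt6* cKO 1 the list had 0 calls and without WT 1 it had 1.

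Of 14 NuRD subunits and partners of Chd4, 0 rose, 1 fell and 13 did not pass (median 0.17). *Mbd3*, the methyl-CpG-binding-domain protein of NuRD, fell from 1335 and 1093 counts to 552 and 598 (log2 fold change -1.02, SE 0.30, edgeR adjusted p = 0.541). *Chd5*, a relative of *Chd4* of neurons and testis, had the highest value, 2.81 (SE 1.34, 95% interval -0.56 to 6.19), from 20 and 15 counts (WT) and 202 and 31 (cKO-labelled), so that *Sirt6* cKO 1 gave most of it. Without WT 1 or without *Sirt6* cKO 1 the list had 0 calls, and without *Sirt6* cKO 2 it had 3.

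Of 26 other proteins reported to bind Aire, edgeR called 0 and DESeq2 called 1 at the unadjusted threshold (median log2 fold change 0.06). The values ran from -0.92 (95% interval -2.23 to 0.40) for *Sirt1*, the deacetylase that acts on Aire, to 0.67 (95% interval -0.08 to 1.42) for *Mbd1*, which binds methylated DNA and recruits Aire through Atf7ip. *Sirt1* counts were 1422 and 3507 (WT) against 931 and 1620 (cKO-labelled). *Mbd1* counts were 1583 and 1405 (WT) against 2627 and 1920 (cKO-labelled), without overlap. Without *Sirt6* cKO 2 the list had 3 calls and without WT 1 it had 2.

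Of 18 tested paralogues of the 9 genes, *Cdk12* rose, 0 fell and 17 did not pass (median 0.08). *Jmjd7*, with 4 to 20 counts per library, did not pass the filter. *Fezf1*, the only close relative of *Fezf2*, had 268 and 506 counts (WT) against 150 and 304 (cKO-labelled), and its log2 fold change of -0.74 (95% interval -2.24 to 0.77) was the lowest of the list. Without WT 1 or without *Sirt6* cKO 1 the list had 0 calls.

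The upstream list holds 19 receptors, NF-kB components and transcription factors taken as acting upstream of *Aire*, which was not tested here for any of them. It had the largest share of calls, 8 higher and 0 lower (42.1% called, median 0.48). *Spib*, an Ets factor of mature mTECs, rose by 1.13 on the log2 scale (SE 0.14, edgeR adjusted p = 0.34), *Irf4* by 0.99, *Foxn1*, the master factor of thymic epithelium and the gene whose promoter drives Cre here, by 0.83, *Relb* by 0.76 and *Ltbr* by 1.16. *Prdm1*, a transcriptional repressor that drives terminal differentiation, had the highest value, 1.70 (SE 0.55, edgeR adjusted p = 0.541), from 1035 and 412 counts in WT to 2862 and 1613. *Hnrpll*, a splicing regulator, had the lowest, -0.77 (95% interval -2.47 to 0.92). The list had 4 calls without *Sirt6* cKO 1 and 5 without WT 1. Several of its genes were known from earlier work on these libraries to be higher, so the count is a description.

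Of 19 tested tissue-restricted genes widely used as examples of Aire dependence, 1 rose, 3 fell and 15 did not pass (median log2 fold change -0.45, 14 of 19 below 0). *Cyp1a2*, a liver cytochrome P450, fell from 3396 and 4525 counts to 1839 and 1631 (-1.14, SE 0.28, edgeR adjusted p = 0.541). *Sult1c2*, a sulfotransferase, fell by 0.73 on the log2 scale (SE 0.27, edgeR adjusted p = 0.557), and *Gal*, the neuropeptide galanin, fell by 0.68 (SE 0.26, edgeR adjusted p = 0.564). *Csn2*, the milk protein beta-casein, rose from 18083 and 18310 counts to 33283 and 26746 (0.78, SE 0.19, edgeR adjusted p = 0.541). The extremes were genes of few counts, *Svs5*, a seminal vesicle protein, with 56 and 28 counts (WT) against 0 and 8 (cKO-labelled), and *Spt1*, a salivary protein, with 6 and 0 against 12 and 26. The list had 2 calls without WT 2 and 2 without *Sirt6* cKO 1, and 2 with the replicate block.

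Of 11 genes used as examples of Fezf2 dependence, 0 rose, 1 fell and 10 did not pass (median -0.65, 8 of 11 below 0). *Resp18*, an endocrine and neuronal secretory protein, fell from 2292 and 3637 counts to 1492 and 1491 (log2 fold change -0.94, SE 0.32, edgeR adjusted p = 0.548). *Ttr*, transthyretin of liver and choroid plexus, had 33 and 184 counts (WT) against 23 and 27 (cKO-labelled) and the lowest value, -2.08 (95% interval -5.27 to 1.11), which rests on WT 2. *Nol4*, a neuronal gene, had the highest, 0.30 (95% interval -0.72 to 1.32). The groups did not overlap in 6 of the 11, all with lower values in the cKO-labelled libraries, as in 20.3% of all genes. Of the 19 tested Aire-dependent genes, 8 had no overlap with lower values and 2 with higher values, against 20.3% and 21.6% of all genes. The list had 0 calls without WT 2 or without *Sirt6* cKO 1 and 3 without WT 1. *Lyz2*, *Cd68*, *Emr1* and 3 of the 6 tuft cell markers fell in the same libraries, as given above. Their part in the values of either antigen list was not tested.

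**Figure D5:**
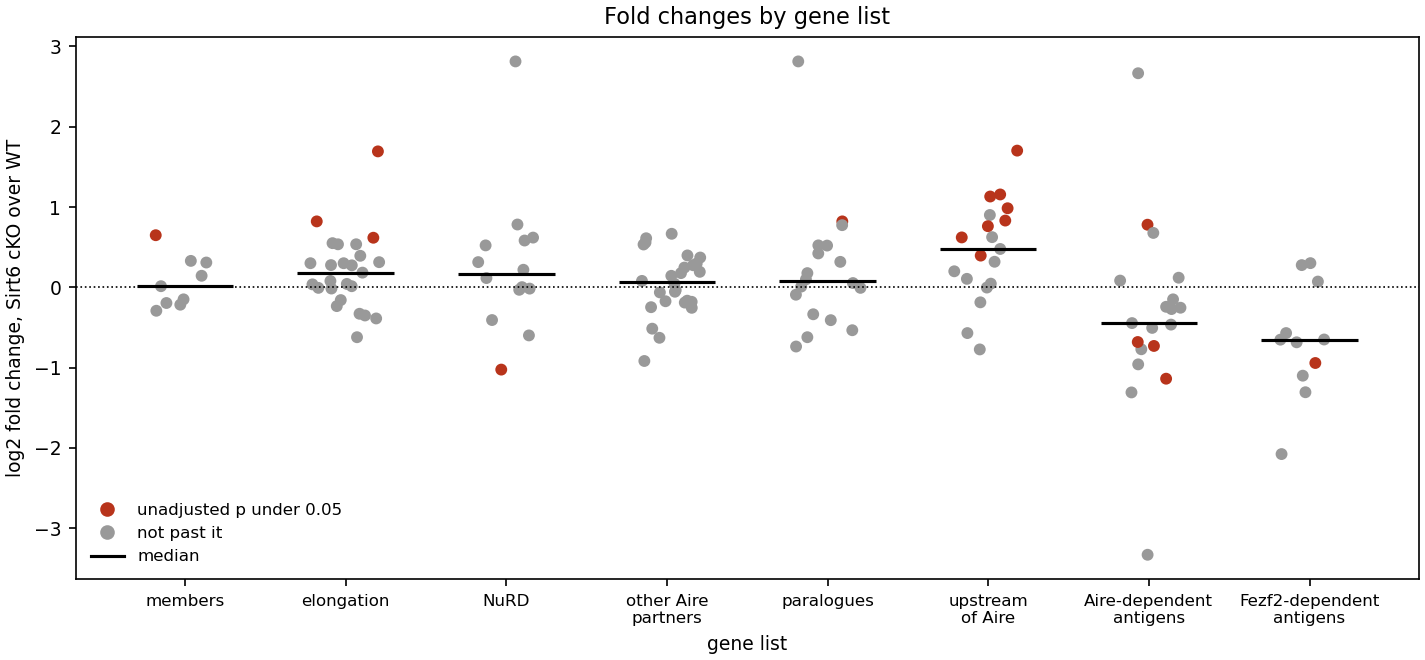
Log2 fold change (libraries labelled *Sirt6* cKO over WT, edgeR) of each tested gene in the 9 genes followed and in the 7 lists, with a line at each median and red points past an unadjusted p of 0.05. The upstream list has 8 red points, all above 0, with a median of 0.48, and the medians of the Aire- and Fezf2-dependent lists are -0.45 and -0.65.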

How the data were processed

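RNA-seq of sorted mTECs from 2 WT and 2 *Sirt6* cKO libraries was used, grouped by their labels. Reads were adapter-trimmed by the authors (Trim Galore), mapped on mm10 by HISAT2 2.1.0 and quantified per gene by StringTie 1.3.3, versions as in the submitters' processing notes. The deposited counts are whole numbers per gene symbol without normalization. The deposited TPM values are scaled to transcript length and library size, and a final line with the column total was left out. The annotation and the strand setting are not given in the sources used here.

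Counts were tested with edgeR 4.0.16 in R 4.3.3 (TMM, filterByExpr at min.count 10 and min.total.count 15, glmQLFit, glmQLFTest). P-values were adjusted by Benjamini-Hochberg over 18547 genes, and calls were made at an unadjusted and an adjusted p of 0.05. The procedure was run on counts simulated from the fitted edgeR model, which cannot show whether that model fits these libraries. Ratios were compared by exact two-sided permutation tests, and genes with few counts carry counting error in addition. The 9 genes and the lists were chosen with earlier results of these data known. The text names all 9, the called genes of each list (at most 5, by smallest p), the highest and lowest gene of each list, and the 3 genes of at least 50 CPM with the pattern nearest to *Aire* and to *Fezf2*. Older symbols were matched through RefSeq. Positions were read from GENCODE M21 (GRCm38, which mm10 also names) and promoters from RefSeq on GRCm38.p6. All 9 genes had a promoter there.

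Other settings tried were DESeq2 1.42.0 (own size factors), all genes with a count, genes with TPM over 0.1 in every library, upper quartile scaling, library size alone, a replicate block, limma 3.58.1 at pseudocounts of 1 and 0.1 on log2 TPM, and leaving each library out. A library left alone in its group was assumed to vary like the other group. Fold changes on the log2(TPM + pseudocount) scale understate those of low genes. Levels were also taken as CPM per kilobase.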

Additional observations from a re-analysis of the deposited data

How the results depend on the processing

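With all 4 libraries, *Aire* kept its direction and stayed past the unadjusted threshold in all 8 alternatives, from 0.56 to 0.65 on the log2 scale, and none of the other 8 genes passed it. *Ccnt1* turned to -0.070 with upper quartile scaling, to -0.075 with library size alone and to -0.0054 and -0.0057 with limma at the larger and the smaller pseudocount. The other scalings moved the median of all genes to -0.09.

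Leaving out each library in turn gave ranges of 0.49 to 0.80 for *Aire*, -0.85 to 0.24 for *Fezf2*, 0.00 to 0.53 for *Chd4*, -0.13 to 0.91 for *Top1*, -0.58 to -0.01 for *Top2b*, -0.37 to -0.10 for *Hipk2*, -0.36 to 0.06 for *Cdk9*, -0.18 to 0.15 for *Ccnt1* and 0.06 to 0.21 for *Jmjd6*. The reversals were *Fezf2* (0.24) and *Top1* (-0.13) without *Sirt6* cKO 1, *Top1* (-0.10) and *Cdk9* (0.064) without WT 2, and *Ccnt1* without WT 1 (-0.04) or *Sirt6* cKO 1 (-0.18). The ratio differences, on the log2 scale, ran from 0.54 to 1.35 (*Aire* to *Fezf2*), from -0.19 to 0.48 (*Ccnt1* to *Cdk9*, also -0.02 without WT 2) and from -0.41 to 1.21 (*Top2a* to *Top2b*), each lowest without *Sirt6* cKO 1. The 9 genes had 0 to 1 call higher (0 without WT 1 or *Sirt6* cKO 2) and 0 to 1 lower (*Fezf2*, without *Sirt6* cKO 2). The lists had 0 to 3 calls (elongation, NuRD, other Aire partners, Fezf2-dependent genes), 0 to 2 (paralogues), 4 to 8 (upstream) and 2 to 4 (Aire-dependent genes).

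Among list counts, DESeq2 gave 3 for NuRD, 3 for paralogues, 3 for Fezf2-dependent genes and 1 for other Aire partners. The last was also 1 with upper quartile scaling, library size alone and limma on log2(TPM + 1), and limma gave 2 Fezf2-dependent genes at both pseudocounts. Over all genes, DESeq2 called 201 higher and 156 lower at an adjusted p of 0.05 where edgeR called 1. The cause was not tested.

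Libraries of the 2 groups share only a replicate number. The deviations of WT 1 and *Sirt6* cKO 1 from their group means had a correlation of -0.0544 across genes, which are not independent replicates. With the replicate block, *Aire* was at 0.65, *Fezf2* at -0.29 and *Top1* at 0.37. The block gave 2 calls for the Aire-dependent genes in place of 4, and 697 higher and 449 lower calls over all genes in place of 977 and 615. Per kilobase of the longest transcript, *Chd4* ranked 4, *Jmjd6* 5, *Top2b* 6 and *Ccnt1* 7, in place of 5, 4, 7 and 6, while *Fezf2*, *Aire*, *Top1*, *Cdk9* and *Hipk2* kept their ranks. With 2 libraries per group, the intervals of the 8 genes that did not pass are too wide to show equality.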

Other observations

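The patterns nearest to *Aire* and *Fezf2* were sought among 4388 genes with a mean of at least 50 CPM, by the root mean square difference of centred log2 CPM over the 4 libraries. For *Aire* these were *Ovol1*, a transcription factor of epithelial differentiation, at 144 and 179.7 CPM in WT and 227 and 271 CPM in the libraries labelled *Sirt6* cKO (difference 0.0183), *Fam102a* (0.0416) and *Fam126b* (0.0426). For *Fezf2* they were *H1f0*, a linker histone of cells that no longer divide, at 679 and 698 CPM in WT and 393 and 851 CPM in the cKO-labelled libraries (0.0282), *Rnf146*, a ubiquitin ligase (0.0361), and *Cdx1*, a homeobox factor of the intestine (0.0482). The genes near *Fezf2* share its low value in *Sirt6* cKO 1, which follows from how they were picked. This is a description of 4 libraries, with no test.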
